A study of Mus musculus with 4 samples.

Results

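The genes of the circadian clock were examined in a mouse podocyte line treated with IL-12. The 10 genes, Arntl, Clock, Per1, Per2, Per3, Cry1, Nr1d1, Nr1d2, Dbp and Tef, were taken by name from the deposited count table, which lists 54532 genes, and all 10 were found and passed the filter on low counts. The cells were of the MPC5 line, a conditionally immortalized mouse podocyte line that proliferates with interferon-γ at a permissive temperature and differentiates without it. The IL-12 treatment group (2 libraries) received IL-12 at 400 ng/ml and was collected after 6 h, and the control group (2 libraries) received saline, with no other agent or allele stated for either group. All libraries came from the same line, and whether those of a group were separate cultures is not stated in the sources used here, so p-values measure only the spread between these libraries, which may be technical. The time of day of harvest and any synchronization of the cells are not given in the sources used here either. Nor is the time that the control group spent in saline, so whether the groups were matched in time is not known. A difference in time of collection could not be told apart from the treatment.

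The mammalian clock is a feedback loop of transcription. CLOCK and BMAL1, the product of Arntl, bind E-box elements and activate the Per, Cry, Nr1d and Dbp genes, and PER and CRY proteins in turn repress CLOCK and BMAL1. The products of Nr1d1 and Nr1d2 (REV-ERBα and REV-ERBβ) repress Arntl through RRE elements, where ROR receptors activate it, and DBP and TEF activate genes with D-box elements. Most cell types, those of the kidney included, run this loop, and the rhythms of cells in a culture drift apart unless they are synchronized.

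Of the 10 clock genes, 5 were lower in the IL-12 treatment group (Dbp, Per3, Tef, Per1 and Nr1d2) and 1 was higher (Arntl), at an adjusted p below 0.05 from edgeR's quasi-likelihood test over all 14095 genes tested. Of all genes tested, 14.4% were lower and 16.1% were higher by the same rule. In bulk RNA, fewer cells with a transcript and less of it per cell cannot be told apart. Dbp alone changed by more than 2-fold, which was the case for 1.61% of all genes tested. Both IL-12 libraries were below both control libraries in 5 clock genes, as in 31.2% of all genes tested, and above them in 2, as in 31.7%. The median log2 fold change was -0.26 over the 10 clock genes and -0.0022 over all genes tested. With scaling by total counts only, 40.5% of all calls were higher, against 52.8% with the TMM scaling used here.

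Promoters of the genes that passed the test are described first. Whether the elements in them had a part in the changes was not tested. Of the 10 genes, 9 (all but Per2) had a promoter in the RefSeq table for GRCm38.p6. They had 14 promoters of 300 bases in all, each running from 250 bases before a start site to 50 bases after it. These were searched on both strands for the E-box CACGTG, the D-box written as TTATGTAA or TTACGTAA, the RRE core written as TAGGTCA or TGGGTCA, and the cAMP response element TGACGTCA, none of which can contain another. An E-box was present in 4 of the 14 promoters (those of Per1, Cry1 and both of Tef) and in 7.15% of 32851 promoters in the table. By gene, this was 3 of the 9. The promoters of Arntl overlap each other, as do some of Clock, so the 14 are not independent. A D-box was found in the Per3 promoter only among these genes, and in 1.06% of all promoters. An RRE core was found in a promoter of Arntl only, and in 6.45% of all promoters. The cAMP response element was in none of them and in 1.79% of all promoters. A match describes the letters and not a site in use, and elements outside these windows were not searched. The matched letters are in capitals in the sequences that follow, which read 5′ to 3′ on the strand of the gene.

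The Per3 promoter (chr4:151044616-151044915 of GRCm38.p6, minus strand) has D-boxes that begin at positions -205 and -158 from the start site.
Per3: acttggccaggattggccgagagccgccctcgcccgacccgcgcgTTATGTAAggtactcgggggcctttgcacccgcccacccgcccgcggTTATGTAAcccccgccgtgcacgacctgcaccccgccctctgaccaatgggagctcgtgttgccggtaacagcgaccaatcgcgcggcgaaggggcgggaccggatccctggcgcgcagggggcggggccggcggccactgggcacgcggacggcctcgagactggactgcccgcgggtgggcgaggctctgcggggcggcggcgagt

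The Per1 promoter (chr11:69098699-69098998, plus strand) has an E-box at position -166, while the other Per1 promoter in the table has no match.
Per1: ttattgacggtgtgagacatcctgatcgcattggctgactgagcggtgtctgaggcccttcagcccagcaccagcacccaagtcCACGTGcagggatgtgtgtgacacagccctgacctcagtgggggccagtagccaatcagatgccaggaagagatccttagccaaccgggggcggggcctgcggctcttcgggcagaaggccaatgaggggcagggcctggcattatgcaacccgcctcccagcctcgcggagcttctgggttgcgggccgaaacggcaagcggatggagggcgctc

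Tef has an E-box in both of its promoters, at position -127 in the upstream one (chr15:81802423-81802722, plus strand) and at position -138 in the downstream one (chr15:81811164-81811463, plus strand).
Tef upstream: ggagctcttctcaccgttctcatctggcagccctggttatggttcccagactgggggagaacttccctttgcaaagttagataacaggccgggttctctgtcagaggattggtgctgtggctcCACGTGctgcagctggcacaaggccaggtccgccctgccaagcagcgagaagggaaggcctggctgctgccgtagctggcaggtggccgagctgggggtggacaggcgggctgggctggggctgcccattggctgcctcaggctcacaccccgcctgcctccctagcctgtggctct
Tef downstream: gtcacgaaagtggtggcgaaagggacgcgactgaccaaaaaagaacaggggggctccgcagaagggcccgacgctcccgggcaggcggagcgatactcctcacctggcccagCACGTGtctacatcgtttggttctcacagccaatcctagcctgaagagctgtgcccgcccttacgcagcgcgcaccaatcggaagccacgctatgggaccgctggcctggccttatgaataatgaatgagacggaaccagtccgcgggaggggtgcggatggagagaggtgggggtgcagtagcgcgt

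The second of the Arntl promoters (chr7:113207261-113207560, plus strand) has an RRE core that begins at position 31 after the start site.
Arntl: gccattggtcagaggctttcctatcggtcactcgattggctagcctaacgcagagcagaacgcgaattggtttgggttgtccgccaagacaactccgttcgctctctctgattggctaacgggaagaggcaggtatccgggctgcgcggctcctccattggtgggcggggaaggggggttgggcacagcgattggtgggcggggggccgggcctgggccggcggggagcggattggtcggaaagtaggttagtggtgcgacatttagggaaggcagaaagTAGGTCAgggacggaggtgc

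The Dbp promoter (chr7:45704997-45705296, plus strand) is shown because Dbp had the largest change of the 10 genes, and it holds none of the elements searched. That of Nr1d2 holds none either.
Dbp: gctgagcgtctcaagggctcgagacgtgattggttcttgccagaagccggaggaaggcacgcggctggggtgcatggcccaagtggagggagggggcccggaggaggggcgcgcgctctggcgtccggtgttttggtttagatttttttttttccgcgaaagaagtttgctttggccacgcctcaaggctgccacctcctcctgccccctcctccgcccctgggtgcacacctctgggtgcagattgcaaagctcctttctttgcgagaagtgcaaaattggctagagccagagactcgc

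Levels of different genes were compared by the deposited FPKM values, which are per length. In the control group Tef was highest, at 21.2 ± 0.426 FPKM (SD, n = 2), followed by Nr1d2 at 14.9 ± 0.203 and Clock at 7.42 ± 0.170. Cry1 (5.81 ± 0.717), Per1 (5.14 ± 0.458) and Nr1d1 (4.82 ± 0.431) came next, and neighbours among these overlapped in their libraries. Per2 (4.02 ± 0.277), Per3 (3.72 ± 0.0128) and Dbp (3.57 ± 0.0361) lay close together without overlap, and Arntl was lowest, at 1.83 ± 0.261 FPKM. In the IL-12 treatment group Tef (16.2 ± 0.0392 FPKM), Nr1d2 (11.7 ± 0.698), Clock (7.48 ± 0.0646) and Cry1 (6.91 ± 0.525) remained the highest in this order. Nr1d1 (4.31 ± 0.394), Per1 (3.99 ± 0.385) and Per2 (3.77 ± 0.506) overlapped from neighbour to neighbour. Arntl (2.26 ± 0.0160) and Per3 (2.18 ± 0.138) overlapped as well, and Dbp was now lowest, at 1.57 ± 0.238 FPKM.

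Dbp and Tef, the activators at D-boxes, fell. Dbp (ENSMUSG00000059824, chromosome 7 from 45705088 to 45710203), a transcription factor of the PAR bZIP family whose mRNA has one of the deepest rhythms in most tissues, had 204 and 200 counts in the controls against 103 and 76 after IL-12. After scaling these were 10.8 and 10.6 CPM (counts scaled to library size) in the control group against 5.21 and 4.20 CPM in the IL-12 treatment group, so the groups lay far apart. Its log2 fold change was -1.18 (standard error, SE, 0.15, 95% interval -1.49 to -0.86), a 2.26-fold lower level (edgeR adjusted p = 6.37e-06). Of all genes tested, 0.759% had a log2 fold change as low as that of Dbp or lower. With any single library left out, Dbp stayed past 2-fold, at -1.34 to -1.03. Tef (ENSMUSG00000022389, chromosome 15 from 81802421 to 81826863), a relative of Dbp that binds the same element, was the most abundant clock gene, with 169 and 164 CPM in the controls against 127 and 128 CPM after IL-12. The IL-12 libraries differed little from each other and were both below the controls. The log2 fold change of Tef was -0.38 (SE 0.04, edgeR adjusted p = 7.63e-07).

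Dbp shares 737 bases with Sphk2, a sphingosine kinase gene on the opposite strand. No source used here says that strand was used in counting, so reads there could go to either gene. Sphk2 had 616 and 634 counts in the controls against 552 and 509 after IL-12, with a log2 fold change of -0.24 (SE 0.07, edgeR adjusted p = 0.0172). Sphk2 was picked here by its position. Its part in the value of Dbp was not tested.

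**Figure D1:**
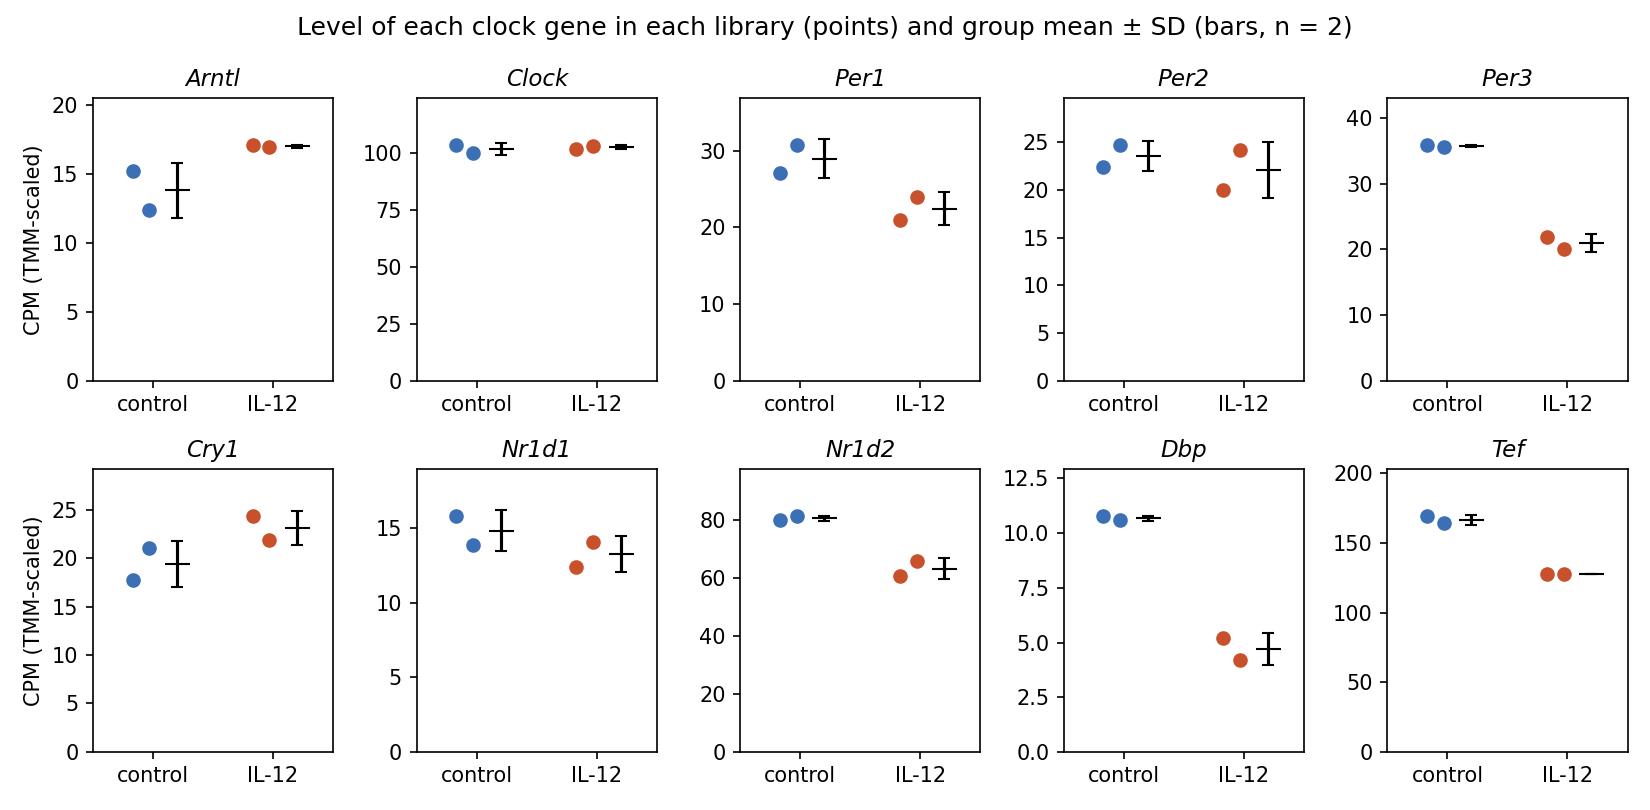
Level of each of the 10 clock genes in CPM (TMM-scaled, each panel from 0) in the 2 control libraries (blue) and the 2 IL-12 libraries (orange), with the group mean ± SD beside the points. The groups stand apart downward for Dbp, Per3, Tef, Nr1d2 and Per1 and upward for Arntl and Cry1, and they overlap for Clock, Per2 and Nr1d1.

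Among the repressors of the loop, Per3 and Per1 fell and Per2 did not pass the test. Per3 (ENSMUSG00000028957, chromosome 4 from 151003652 to 151044665), a period gene that is rhythmic but dispensable for the loop itself, had 35.9 and 35.7 CPM in the controls against 21.9 and 20.01 CPM after IL-12. The control libraries nearly coincided, and the gap between the groups was wide. Its log2 fold change was -0.77 (SE 0.08, 95% interval -0.93 to -0.61, edgeR adjusted p = 4.22e-07). Per3 lies wholly within Camta1, a calmodulin-binding transcription activator gene on the same strand, whose counts were 197 and 255 in the controls against 234 and 221 after IL-12 (log2 fold change 0.0077, SE 0.13). Per1 (ENSMUSG00000020893, chromosome 11 from 69095217 to 69109960), a period gene that also responds quickly to cAMP and glucocorticoids, had 27.1 and 30.7 CPM in the controls against 20.9 and 24.0 CPM after IL-12. The groups of Per1 were separate but closer than those of Per3. Its log2 fold change was -0.37 (SE 0.09, edgeR adjusted p = 0.00423). Without IL-12 replicate 1 the log2 fold change of Per1 was -0.27, with an adjusted p of 0.143, and over all 14 settings its adjusted p ranged from 0.000163 to that value.

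Per2 (ENSMUSG00000055866, chromosome 1 from 91415982 to 91459324), a period gene needed for lasting rhythms in mice, had 22.4 and 24.7 CPM in the controls against 19.97 and 24.2 CPM after IL-12. The groups overlapped, and the 95% interval of its log2 fold change ran from -0.30 to 0.11 (edgeR adjusted p = 0.506). Cry1 (ENSMUSG00000020038, chromosome 10 from 85131700 to 85185064), the cryptochrome that represses CLOCK and BMAL1 late in the cycle, had 17.7 and 21.1 CPM in the controls against 24.3 and 21.8 CPM after IL-12. The IL-12 libraries lay above those of the controls, but by less than the control libraries differed from each other. The log2 fold change of Cry1 was 0.25 (SE 0.10, 95% interval 0.043 to 0.46), and its edgeR adjusted p of 0.0646 missed the threshold. Without control replicate 2 it was 0.38, with an adjusted p of 0.00683. Over the 14 settings the adjusted p of Cry1 ranged from that value to 0.457, and it passed in 2 of them, the other being the fit that blocked on replicate number (adjusted p = 0.0323).

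Of the activators, Arntl was higher and Clock did not pass the test. Arntl (ENSMUSG00000055116, chromosome 7 from 113207465 to 113314126), which encodes BMAL1, had 288 and 234 counts in the controls against 338 and 306 after IL-12. These were 15.2 and 12.4 CPM against 17.1 and 16.9 CPM, so the IL-12 libraries lay closer to each other than the control libraries did. The log2 fold change of Arntl was 0.30 (SE 0.11, 95% interval 0.068 to 0.53, edgeR adjusted p = 0.0477). This is close to the threshold, and Arntl passed in 6 of 14 other settings, where its adjusted p ranged from 0.0065 to 0.422. Without control replicate 2 its log2 fold change was 0.16, and without IL-12 replicate 1 or 2 it was 0.29 or 0.31, and Arntl passed in none of these fits. Clock (ENSMUSG00000029238, chromosome 5 from 76209868 to 76304792), the partner of BMAL1, had 104 and 100.1 CPM in the controls against 102 and 103 CPM after IL-12. With 7737 counts over the 4 libraries, the log2 fold change of Clock had a 95% interval of -0.087 to 0.11 around 0.0097, and its sign changed with the scaling.

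Of the nuclear receptors that repress Arntl, Nr1d2 fell and Nr1d1 did not pass the test. Nr1d2 (ENSMUSG00000021775, chromosome 14 from 18204054 to 18239127) had 79.8 and 81.2 CPM in the controls against 60.6 and 65.9 CPM after IL-12, with no overlap. The log2 fold change of Nr1d2 was -0.35 (SE 0.05, edgeR adjusted p = 5.18e-05). Nr1d1 (ENSMUSG00000020889, chromosome 11 from 98767932 to 98775333), its paralogue, had 15.8 and 13.9 CPM in the controls against 12.4 and 14.1 CPM after IL-12. The groups of Nr1d1 overlapped, with a log2 fold change of -0.17, a 95% interval of -0.40 to 0.071 (edgeR adjusted p = 0.302), so that interval includes the change of Nr1d2. Nr1d1 overlaps Thra, the thyroid hormone receptor α gene on the opposite strand, by 1075 bases. Thra had 514 and 525 counts in the controls against 420 and 358 after IL-12 (log2 fold change -0.42, SE 0.08, edgeR adjusted p = 0.000711), and its part in the value of Nr1d1 was not tested.

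**Figure D2:**
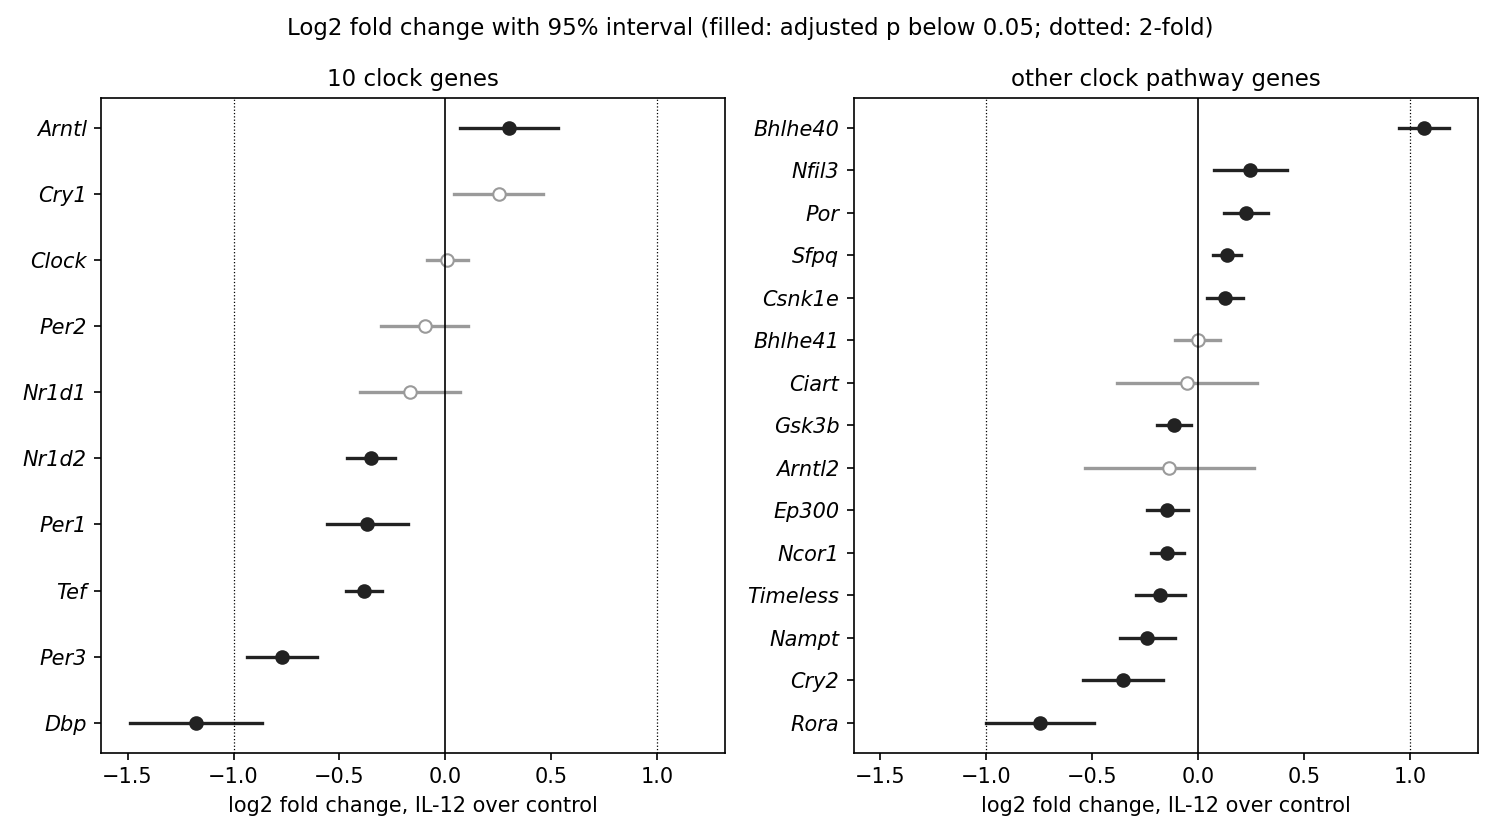
Log2 fold change of IL-12 over control (point) with its 95% interval (line) for the 10 clock genes (left) and for other clock pathway genes (right), filled where the adjusted p was below 0.05, with dotted lines at 2-fold. Dbp (-1.18) and Per3 (-0.77) lie lowest on the left, and Bhlhe40 (1.07) and Rora (-0.75) lie at the ends on the right.

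The clock genes were also set against each other within each library, since a ratio of counts needs no scaling of libraries. The ratios named were chosen after the values were seen and were not tested. Of all 45 pairs, the groups did not overlap in 39 and overlapped in 6, and the pairs are not independent, since each gene is in several. The share over pairs of other genes was not computed, so the 39 cannot be called unusual. Of single genes tested, the groups did not overlap in 31.7% upward and in 31.2% downward. Arntl had 1.41 and 1.17 counts for each count of Dbp in the controls against 3.28 and 4.03 after IL-12. The ratio of Arntl to Per3 was 0.424 and 0.348 in the controls against 0.781 and 0.845 after IL-12. Both ratios were thus far apart between the groups, while the ratio of Arntl to Cry1 was not, at 0.857 and 0.588 against 0.703 and 0.775. Within the period genes, Per2 had 0.625 and 0.692 counts for each count of Per3 in the controls against 0.912 and 1.21 after IL-12, so Per2 and Per3 did not keep their proportion. Dbp and Tef did not either, with 0.0637 and 0.0646 against 0.0408 and 0.0328. Among the 6 pairs that overlapped, Nr1d2 had 0.472 and 0.495 counts for each count of Tef in the controls against 0.475 and 0.515 after IL-12. The ratio of Per1 to Tef was 0.160 and 0.187 against 0.164 and 0.188, so the groups overlapped for these genes, whose log2 fold changes were -0.35, -0.38 and -0.37 for Nr1d2, Tef and Per1. The ratio of Nr1d1 to Nr1d2 was 0.198 and 0.171 in the controls against 0.205 and 0.214 after IL-12, apart by less than the control libraries differed.

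**Figure D3:**
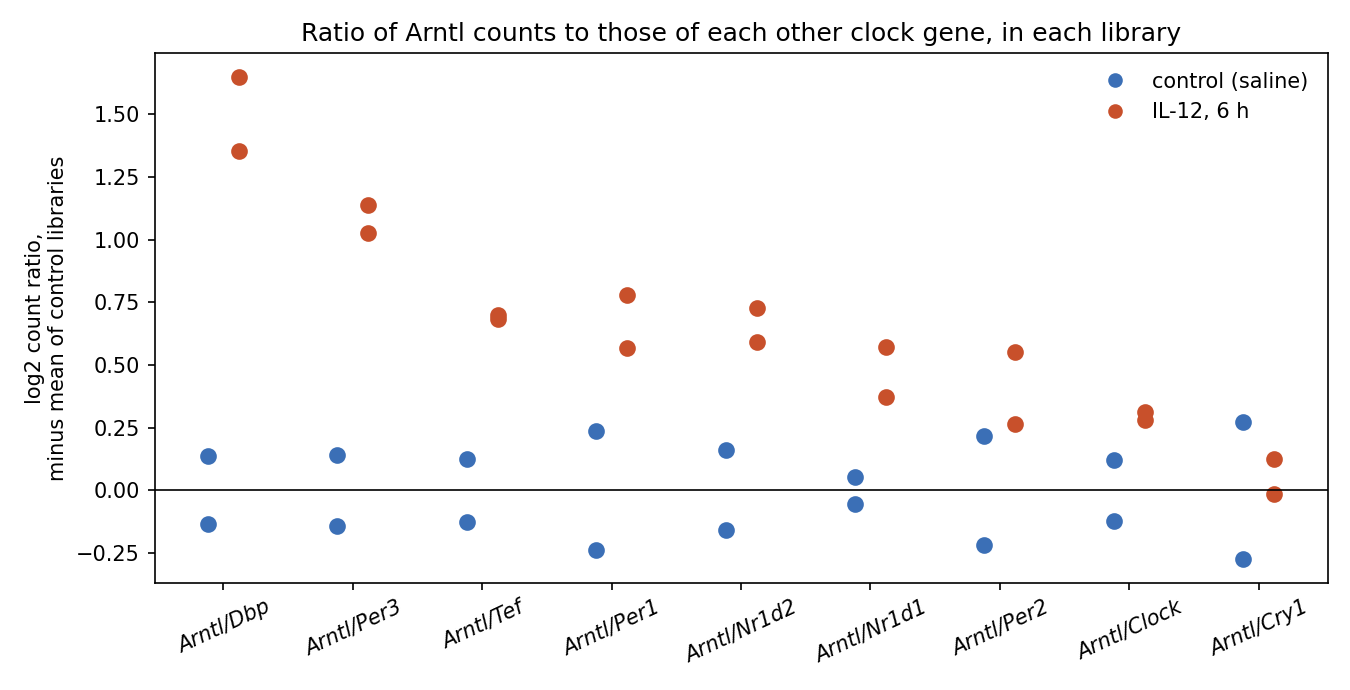
Log2 ratio of Arntl counts to the counts of each other clock gene in each library, minus the mean of the control libraries (blue, 2 control libraries; orange, 2 IL-12 libraries). The shift is largest for Dbp and next for Per3, and the groups overlap only for Cry1.

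A list of 30 other genes of the clock pathway was examined by role, of which 27 passed the filter. At an edgeR adjusted p below 0.05, 5 were higher and 7 were lower, against 16.1% and 14.4% of all genes tested, and the median log2 fold change was -0.065. Bhlhe40 (DEC1), a repressor that competes with CLOCK and BMAL1 at E-boxes, had the largest change, with 43.2 and 42.9 CPM in the controls against 86.2 and 94.1 CPM after IL-12. Its log2 fold change was 1.07 (SE 0.06, edgeR adjusted p = 9.04e-11), and it stayed above 2-fold in all 14 settings, the lowest value being 1.003. Its paralogue Bhlhe41 (DEC2) had 70.0 and 73.3 CPM in the controls against 70.9 and 72.2 CPM after IL-12, a log2 fold change of -0.0018 with a 95% interval of -0.11 to 0.10. Rora, a receptor that activates Arntl at the RRE, fell from 14.8 and 13.7 CPM to 9.05 and 7.90 CPM, a log2 fold change of -0.75 (SE 0.12, edgeR adjusted p = 0.000106). Cry2, the other cryptochrome, fell from 26.5 and 26.97 CPM to 22.6 and 19.2 CPM, a log2 fold change of -0.35 (SE 0.09, edgeR adjusted p = 0.00574), and without IL-12 replicate 2 this was -0.24 and did not pass. Cry1 had a log2 fold change of 0.25 that did not pass, and the difference between the cryptochromes was not tested. Nfil3, which represses at D-boxes, rose by 0.25 (SE 0.08, edgeR adjusted p = 0.0297).

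Further called genes had smaller changes. The higher ones were Por, a reductase that serves cytochromes P450 (log2 fold change 0.23, SE 0.05), Sfpq, a partner of the PER complex (0.14, 0.03), and Csnk1e, a kinase that marks PER proteins for degradation (0.13, 0.04). The lower ones were Nampt, the rate-limiting enzyme of NAD salvage (-0.24, 0.06), Timeless, named after the fly clock gene (-0.18, 0.05), Ncor1, the corepressor of the REV-ERB receptors (-0.14, 0.04), Ep300, a histone acetyltransferase (-0.14, 0.05), and Gsk3b, a kinase of clock proteins (-0.11, 0.04). Of the 12 called genes of the list, Bhlhe40, Rora and Sfpq passed in all 14 other settings. With every library kept, Nfil3, Csnk1e, Gsk3b, Timeless and Ep300 did not pass with the DESeq2 Wald test or without a filter. Nfil3 and Csnk1e did not pass with scaling by total counts only. Ep300 did not pass with a correction for gene length, with or without the replicate block, and Gsk3b did not with both. Without control replicate 1, Nfil3 (0.16), Gsk3b (-0.077), Ncor1 (-0.11), Ep300 (-0.086) and Nampt (-0.15) did not pass. Without control replicate 2, Csnk1e (0.10) and Timeless (-0.13) did not. Without IL-12 replicate 1, Nfil3 (0.23), Csnk1e (0.14), Gsk3b (-0.068), Timeless (-0.14), Ncor1 (-0.12), Ep300 (-0.12), Nampt (-0.21) and Por (0.19) did not, and without IL-12 replicate 2, Nfil3 (0.26), Csnk1e (0.12) and Ep300 (-0.16) did not. Arntl2, a paralogue of Arntl (73 to 88 counts in a library), and Ciart, a repressor of CLOCK and BMAL1 (103 to 141), did not pass, with log2 fold changes of -0.13 and -0.052 and 95% intervals of -0.53 to 0.26 and -0.38 to 0.28. Npas2, a counterpart of Clock, had 2 counts in IL-12 replicate 1 and 0 in each other library, Rorb had 2 to 7 counts, and Hlf had 1 and 12 counts in the controls against 2 and 1 after IL-12, so differences in these genes were not detectable at this depth.

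**Figure D4:**
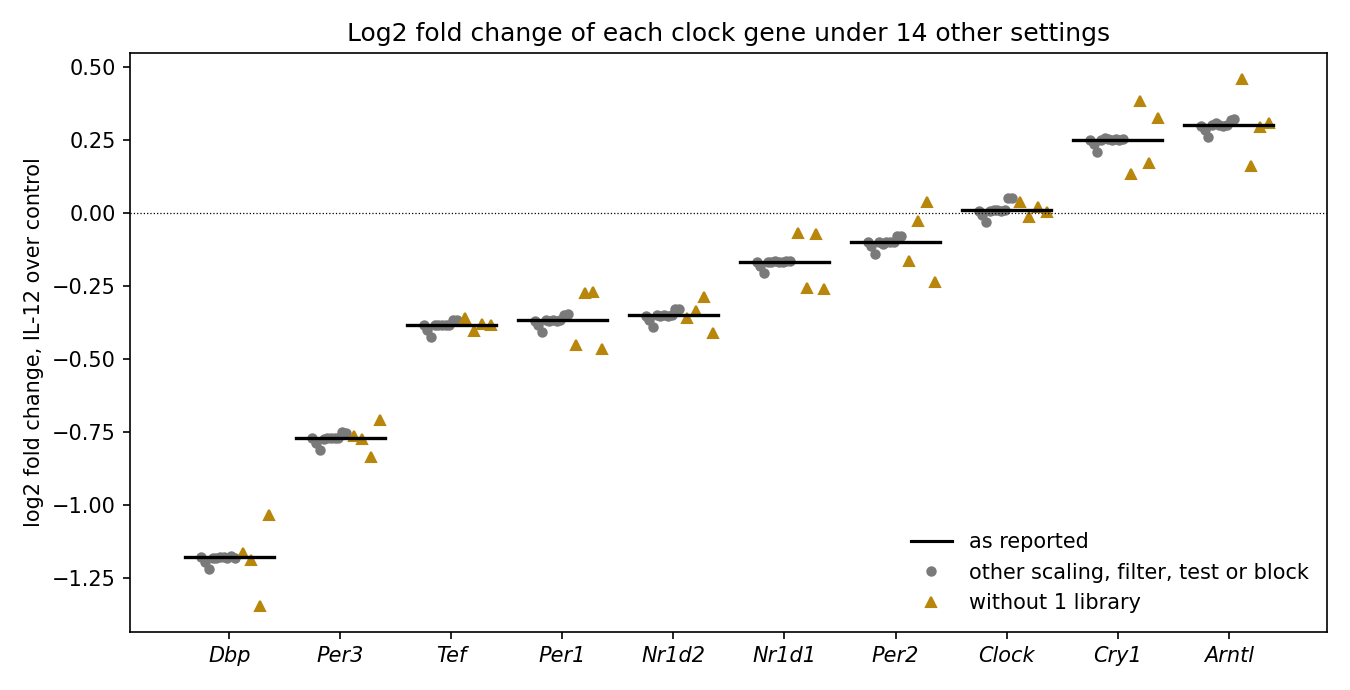
Log2 fold change of each clock gene as reported (black line), under 10 other scalings, filters, tests or blocks (grey points) and without each of the 4 libraries (triangles). Dbp, Per3, Tef, Per1 and Nr1d2 stay below 0 and Cry1 and Arntl stay above 0 in all of them, while Clock and Per2 cross 0.

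The total counts per library were 18355379 to 20098012, where 3 counts amount to 0.149 to 0.163 CPM, which covers counting error only. No library stood apart, with a correlation of log2 CPM over genes of 0.997 within each group and at most 0.992 between groups, and mitochondrial genes took 1.94% to 2.04% of the counts. Of 14 podocyte markers 7 passed the filter, with a summed level of 2850.0 and 2861 CPM in the controls and 2806 and 2825 CPM after IL-12, 3 genes being called higher and 1 lower. The sum covers opposite moves: Synpo, an actin-associated podocyte gene, was at 489 and 470 CPM in the controls and 302 and 307 CPM after IL-12 (log2 fold change -0.66, edgeR adjusted p = 3e-11), and Actn4, an α-actinin gene, was at 1147 and 1163 CPM and 1323 and 1275 CPM (0.17, edgeR adjusted p = 6.07e-05). Both were named after their values were seen. Nphs1, Wt1, Lmx1b and Foxc2 had at most 16 counts in a library and were not tested, and Tcf21 and Ptpro were at 0 in all libraries, so these defining markers of podocytes in tissue were absent or nearly so. Of the markers of other cell types, all 5 immune and all 3 endothelial genes were below the filter, with summed levels of at most 0.663 and 0.455 CPM. The 3 mesangial markers (67.6 to 79.6 CPM) had 1 gene called higher and 1 called lower. Of the 4 tubule markers (632 and 659 CPM in the control libraries, 517 and 558 CPM in the IL-12 libraries) Slc34a1 and Umod were at 0 and Lrp2, named after its values were seen, made up nearly all, with a log2 fold change of -0.27 (edgeR adjusted p = 8.7e-06). The part of this difference in the clock genes was not tested.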

How the data were processed

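RNA was sequenced from 4 libraries of mouse podocytes. The authors deposited raw counts per gene, not normalized, and FPKM values, which equal the counts per length and per library total times a factor of each library (0.985 to 1.02). The submitters' processing notes name HISAT2, StringTie and mm9. The gene coordinates equal those of GENCODE M21 on GRCm38 for all 10 clock genes and for 98.3% of 54409 shared genes, so coordinates are given in GRCm38. The counting program, its use of strand and its handling of shared reads are not given in the sources used here. The genes and lists were chosen with earlier results of these data known. Every clock gene is named, and of 30 other pathway genes those called, the paralogues and Ciart, apart from items that are not reported here.

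Tests on the counts were run with edgeR 4.0.16 under R 4.3.3 (filterByExpr with a minimum of 10 counts and 15 in total, TMM, quasi-likelihood test, no block) and Benjamini-Hochberg adjustment over 14095 genes. An SE is the log2 fold change over the square root of F. CPM is scaled by TMM factors (0.985 to 1.02). Alternatives were DESeq2 1.42.0, limma 3.58.1 voom, other scalings and filters, a replicate block, a loess correction for gene length (span 0.3) and each library left out. The fit was also run on simulated counts, drawn with the same spread for every gene and with independent libraries. That run does not measure how reliable the calls made here are. Figures were drawn with matplotlib 3.10.9. Promoters are those of RefSeq. Within each group the 2 libraries were further apart than counting noise allows (chi-square per degree of freedom 2.20 and 2.52), so no library was treated as a second deposit of another.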

Additional observations from a re-analysis of the deposited data

How the results depend on the processing

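The log2 fold changes of the 10 clock genes were recomputed in 14 settings. Of these 140 values, 125 kept their direction and their side of the threshold, 9 lost the call, 2 gained it and 4 changed sign. The sign changes were in genes that did not pass: Clock (-0.0059 with upper-quartile scaling, -0.031 with total counts only, -0.014 to 0.037 with a library left out) and Per2 (-0.24 to 0.037 with a library left out). The same was seen for Ciart (-0.23 to 0.098) and Bhlhe41 (-0.033 to 0.033, and 0.016 and 0.017 with the gene length correction without and with the block). The number of clock genes called higher, 1 as reported (Arntl), was 0 with upper-quartile scaling, total counts only and the DESeq2 Wald test. It was also 0 with no filter, at least 10 counts in every library and an adjusted p below 0.01. With a library left out, the log2 fold change ranged from 0.16 to 0.46 for Arntl and from 0.13 to 0.38 for Cry1. The cause was not tested. The number called lower was 5 in every setting except without IL-12 replicate 1, where it was 4. At a 1.5-fold limit 2 clock genes passed instead of 1. The share of all genes tested that passed this limit was not computed. Of the other pathway genes, 3 were higher and 9 lower with total counts only, and 3 were higher and 4 lower with the DESeq2 Wald test and without a filter, against 5 and 7 as reported. With a library left out, which leaves fewer samples and assumes that the lone one varies like the other group, 2 to 4 were higher and 2 to 7 lower. The groups share the replicate numbers 1 and 2, but same-numbered libraries did not deviate together (correlation of -0.032 across genes). With the replicate block 2 clock genes were higher (Arntl and Cry1) and 5 were lower. Over all genes 4297 were called as reported, 4341 with the block, 2705 with the DESeq2 Wald test and 2528 without IL-12 replicate 1. With 2 libraries a group, genes of few counts such as Rorb, Hlf and Npas2 cannot show a difference.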
